A study of Mus musculus with 4 samples.

Results

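The Hedgehog and PTHrP loop of the growth plate was followed through 9 genes, named from the pathway: the ligands Ihh and Pthlh (the gene of PTHrP), the receptors and signal transducer Ptch1, Smo and Pth1r, the antagonist Hhip, and the transcription factors Gli1, Gli2 and Gli3. They are 9 of 21581 protein-coding mouse genes with an annotated start site. For each gene, the H3K27ac peaks inside its body or within 150 kb of its start site were collected, and these windows held 131 of the 43885 distal H3K27ac regions found in the study.

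In the growth plate, chondrocytes that leave the cell cycle and start to enlarge secrete Indian hedgehog (Ihh), which raises PTHrP in the round cells at the end of the cartilage and in the perichondrium. PTHrP binds its receptor Pth1r on chondrocytes and delays their enlargement, so the loop sets how long the column of dividing cells is. Hedgehog ligands bind Ptch1, which otherwise holds Smo inactive. Active Smo changes the processing of Gli2 and Gli3, and Gli1, Ptch1 and Hhip are themselves targets of the pathway, Ptch1 and Hhip binding and removing ligand. H3K27ac is a histone mark of active promoters and enhancers.

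The data were 4 lists of H3K27ac ChIP-seq peaks from mouse fetuses at E14.5, 1 library for each of 4 sorted cell populations, namely the EGFP+ and the EGFP− cells of limb buds and of the trunk. All fetuses carried the Col2a1-EGFP genotype on the G4 background, an EGFP sensor with a minimal promoter placed upstream of Col2a1 so that Col2a1-expressing chondrocytes become EGFP+, and all came from a single homozygous embryonic stem cell line by tetraploid aggregation. Cells of several fetuses were pooled. With 1 library per population no difference could be tested against replicate error, and no p-value is given; every difference between lists below is a description of these 4 libraries. Limb and trunk libraries were also run on different sequencer lanes according to their run names, so that lane and tissue are confounded and cannot be told apart, and the peaks of the trunk EGFP− library carry a replicate number in their names that differs from its sample label.

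The lists held 40899 peak intervals for limb EGFP+, 34360 for limb EGFP−, 36231 for trunk EGFP+ and 30716 for trunk EGFP− cells. The weakest intervals rested on 7 to 8 reads at their summit, and the median interval on 24 to 26. Of 15 chondrocyte markers, such as Col2a1, Acan and Sox9, all 15 had an H3K27ac peak at their promoter in each EGFP+ list, against 5 in limb EGFP− and 4 in trunk EGFP− cells. Of the other cell types, 4 epithelium and 4 blood markers had none in any list, 5 endothelium markers had 1 (Tek) in each EGFP− list, and 6 muscle markers had 1 (Myog), in limb EGFP+ cells. Of 8 connective tissue markers 4 were marked in limb EGFP+, 5 in limb EGFP−, 3 in trunk EGFP+ and 5 in trunk EGFP− cells, and of 5 neural markers 2, 1, 1 and 2. Their part in the results was not tested. In a sorted population, a mark carried by fewer cells and a weaker mark in every cell cannot be told apart, and a region without a called peak is not a region without the mark.

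All 9 genes had a peak in their own promoter (from 2 kb before to 500 bp after a start site) in limb EGFP+ cells, where 54.4% of all genes did. In trunk EGFP+ cells 8 of 9 did (52.6% of all genes), in limb EGFP− cells 6 of 9 (51.6%) and in trunk EGFP− cells 6 of 9 (52.7%). With a fold over background of at least 4 the limb numbers were 5 in EGFP+ and 5 in EGFP− cells. At −log10 q values from 5 upward they were 8 and 6. The same 6 genes, Ptch1, Smo, Pth1r, Gli1, Gli2 and Gli3, were marked in all 4 lists, as were 47.4% of all genes. Ihh, Pthlh and Hhip were not marked in either EGFP− list but in at least 1 EGFP+ list, a state found in 3.89% of all genes. In the full lists both ligands and the ligand-binding antagonist thus fell in the EGFP+-only class, and the receptors, Smo and Gli factors in the class marked in every list. For Ihh this rested on 1 peak of 11 reads in limb EGFP+ cells, at 3.85-fold, which a fold of at least 4 leaves out.

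**Figure D1:**
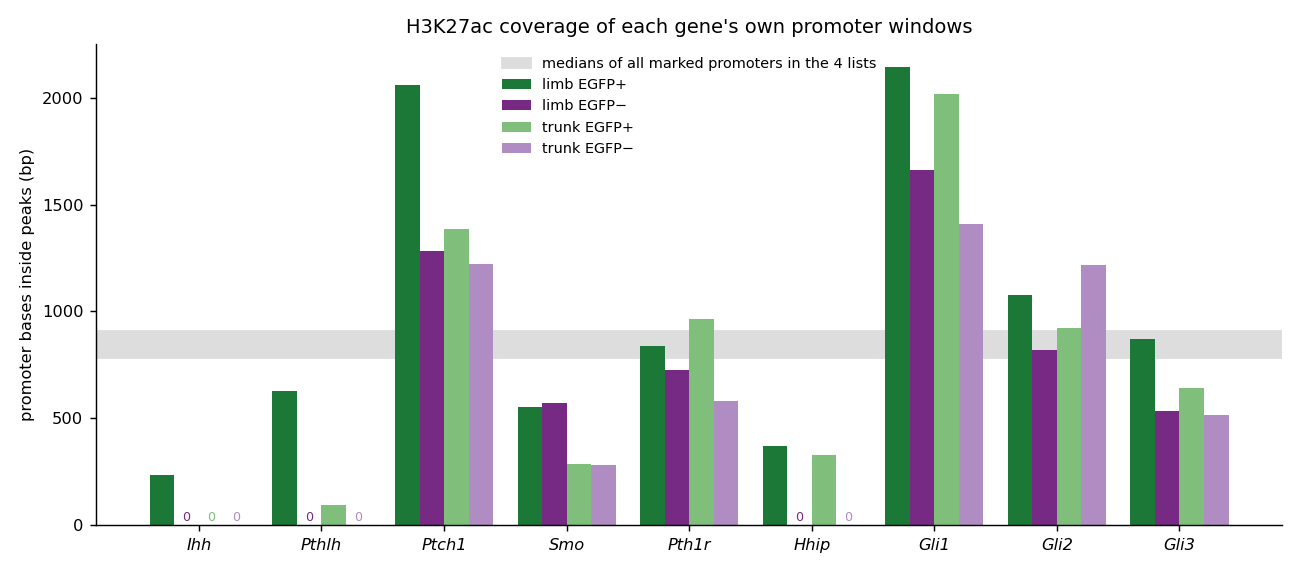
Bases of each gene's own promoter windows that lay inside H3K27ac peaks (vertical axis, bp) in the 4 lists (bars, 1 library each, no error bars). The grey band spans the medians of all marked promoters in the 4 lists (783 to 906 bp). Gli1 (2145 bp) and Ptch1 (2062 bp) stand highest in limb EGFP+ cells, and Ihh, Pthlh and Hhip are at 0 in both EGFP− lists.

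Distal regions, which lie outside the promoter windows of all protein-coding genes, were compared by the lists in which they had a peak. Of the 131 regions near the 9 genes, 77 (58.8%, 95% exact binomial interval 49.8 to 67.3) had peaks in EGFP+ lists only, where 46.2% of all distal regions did. EGFP−-only regions numbered 30 (22.9%, interval 16.0 to 31.1; 31% of all). Another 12 were found in all 4 lists (9.16%; 10.3% of all) and 12 in another combination (9.16%; 12.5% of all). Neighbouring regions of 1 locus are not independent, so these intervals cover counting error only. The EGFP+-only share of these EGFP+-only and EGFP−-only regions was 72.0% (interval 62.5 to 80.2), against 59.9% over all regions. Among stronger peaks the share was close to that of all regions. With the 20000 intervals of highest −log10 p kept in each list the share was 52.4% (11 of 21 regions) against 50.6% over all regions, and with a fold over background of at least 4 it was 63.6% against 63.9%.

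**Figure D2:**
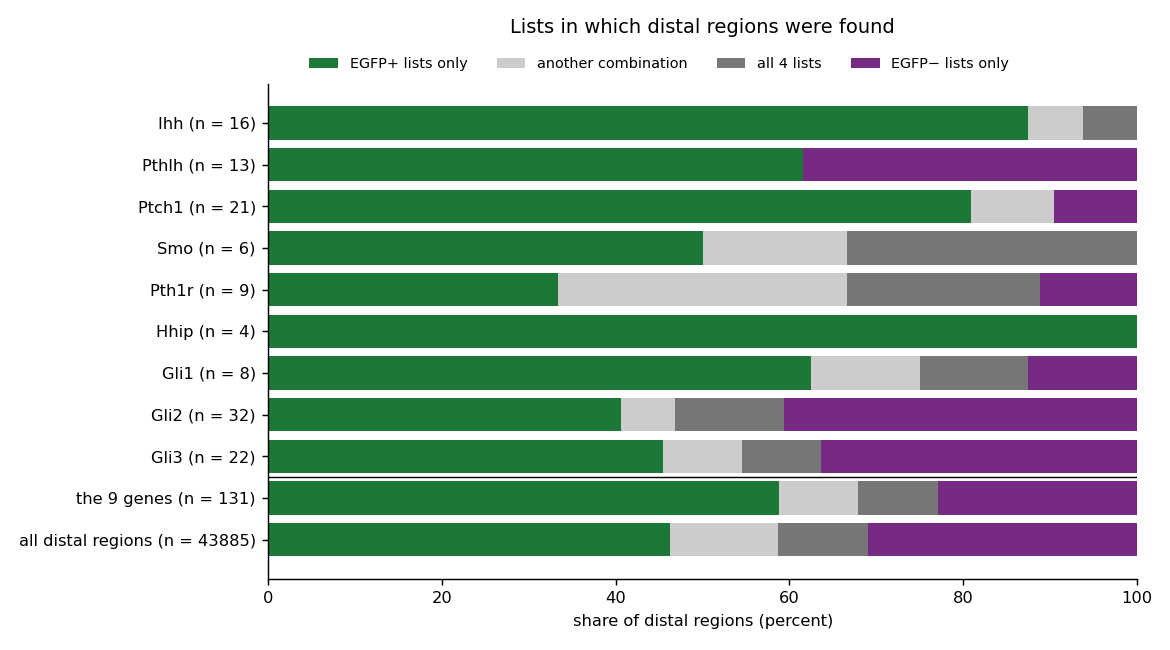
Share of distal regions (horizontal axis, percent) found in EGFP+ lists only, EGFP− lists only, all 4 lists or another combination, for each gene, for the 9 genes together and for all distal regions. Ihh (87.5%), Ptch1 (81.0%) and Hhip (100%, of only 4 regions) have the highest EGFP+-only shares, and Gli2 has as many EGFP−-only as EGFP+-only regions.

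The genes differed in this respect. Ihh had 14 EGFP+-only and no EGFP−-only regions, Ptch1 17 and 2, Gli1 5 and 1, Hhip 4 and 0, Smo 3 and 0, and Pth1r 3 and 1. Pthlh had 8 and 5, Gli3 10 and 8, and Gli2 13 and 13. The loci with few or no EGFP−-only regions were thus those of Ihh, Ptch1, Smo, Hhip, Gli1 and Pth1r, while Gli2 and Gli3 had similar numbers of both. In stricter lists Gli3 held more EGFP−-only regions, with 1 EGFP+-only against 4 at −log10 q values from 5 upward, 1 against 4 with 20000 intervals per list and 1 against 6 at a fold of at least 4. For Gli2 the numbers were 5 against 4, 0 against 4 and 3 against 4 in that order. Ihh, Smo and Hhip had EGFP+-only but no EGFP−-only regions, as did 14.8% of all genes. This held for Ihh in the full lists only, since the same stricter lists left it with 5, 2 and 5 EGFP+-only regions and 1 EGFP−-only region each. The latter lay 143.1 kb past the start site, with 21 reads in limb EGFP− cells (5.98-fold, top 39.7%) and a weaker peak of 10 reads in trunk EGFP+ cells. Within 500 kb Smo had 6 regions of either kind. At least as many EGFP+-only regions as at Ihh were found for 1.48% of all genes, and at least as many as at Ptch1 for 0.514%. Some of these regions lie close together, and with regions merged within 500 bp Ihh had 8 EGFP+-only regions and Ptch1 10. The shares of all genes were not computed for merged regions.

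Counted as intervals, the 9 windows held 81 distal intervals in limb EGFP+, 40 in limb EGFP−, 62 in trunk EGFP+ and 33 in trunk EGFP− cells. The median per gene was 8, 3, 7 and 2, and over all genes 2 in each list. Limb EGFP+ cells had more distal intervals than limb EGFP− cells at 8 of the 9 genes (40.8% of all genes), Smo being equal. Trunk EGFP+ cells had more than trunk EGFP− cells at 7 of 9 (41.4% of all genes), with Gli3 equal and Gli2 lower. In both tissues at once the EGFP+ number was higher at 6 of 9 genes (26.2% of all genes). The EGFP+ lists are also the longer ones, and with 20000 intervals kept in each list the 9 windows held 17 distal intervals in limb EGFP+ against 17 in limb EGFP− and 17 in trunk EGFP+ against 14 in trunk EGFP− cells.

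**Figure D3:**
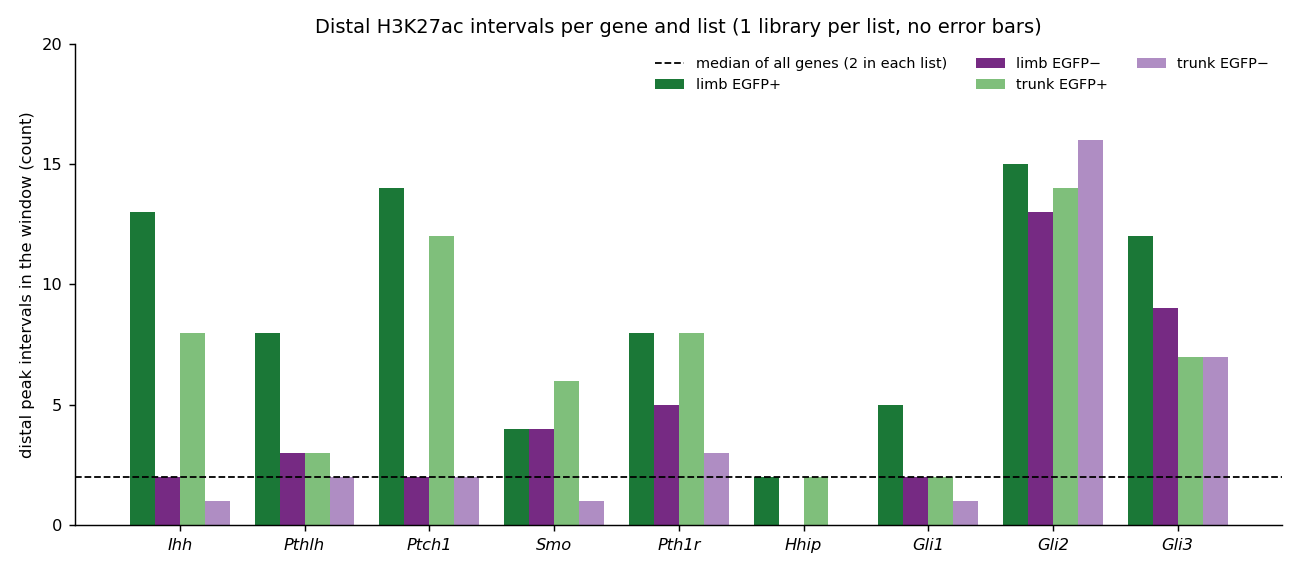
Number of distal H3K27ac intervals (vertical axis) in each gene's window, 1 bar per list and no error bars, with the median of all genes (2 in each list) as a dashed line. Ihh has 13 and 8 in the limb and trunk EGFP+ lists against 2 and 1 in the EGFP− lists, and Ptch1 14 and 12 against 2 and 2.

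None of these distal intervals was among the upper 10% of its list by −log10 p, where 1.19 to 1.58% of all distal intervals stood. Positions within a list are given below as the top share of that list's intervals that a peak belongs to, so that a smaller percentage is a stronger peak. Those in the upper 50% numbered 17 of 81 in limb EGFP+ (21.0%; 27.3% of all distal intervals), 12 of 40 in limb EGFP− (30%; 24.5%), 16 of 62 in trunk EGFP+ (25.8%; 25.3%) and 8 of 33 in trunk EGFP− cells (24.2%; 21.5%). The distal peaks of this loop were therefore many but of ordinary strength. In limb EGFP+ cells the peaks of regions found in all 4 lists stood at a median top 24.1% (37.2% over all such regions of the genome). Those of regions with peaks in both EGFP+ lists only stood at 60.5% (61.4%), and those found in limb EGFP+ cells alone at 84.5% (78.9%). The same order thus held over the genome.

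Of the 77 EGFP+-only regions, 18 had peaks in both EGFP+ lists (23.4%; 23.3% of all EGFP+-only regions), 39 in limb alone and 20 in trunk alone. Limb thus held 66.1% of the regions seen in a single tissue (interval 52.6 to 77.9), where it held 59.9% over all regions. The 30 EGFP−-only regions were split into 6 in both tissues, 13 in limb alone and 11 in trunk alone.

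Ihh, the hedgehog ligand of prehypertrophic chondrocytes, lies on chromosome 1 (74984474-74990837 of GRCm39, minus strand). Its promoter carried 1 peak, in limb EGFP+ cells alone, which was 232 bp wide, rested on 11 reads (exact Poisson 95% interval 5.49 to 19.7) at a fold of 3.85 over the local background, and stood in the top 83.3% of its list. No peak was called there in the other 3 lists. The promoter of this ligand was therefore weakly marked even in the sorted chondrocytes, and the peak lay 213 to 444 bp upstream of the start site. Its sequence is printed whole on the plus strand because it is the only promoter interval of the gene, at chr1:74991050-74991281:
Ihh promoter peak: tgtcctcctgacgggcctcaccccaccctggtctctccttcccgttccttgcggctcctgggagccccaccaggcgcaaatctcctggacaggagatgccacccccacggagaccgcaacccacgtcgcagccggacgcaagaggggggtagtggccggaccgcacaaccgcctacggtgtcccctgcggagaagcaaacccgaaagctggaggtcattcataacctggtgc

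The strong peaks of the Ihh locus were distal. All 12 upstream regions lay inside the neighbouring gene Nhej1, a DNA repair gene, 11 of them in introns and 1 over an exon, and all 12 were EGFP+-only. The region 13.7 kb upstream of Ihh (chr1:75003925-75005157, over the Nhej1 exon) had the highest mean rank of all 18 regions shared by both EGFP+ lists and no EGFP− list. In limb EGFP+ cells it had 44 reads (interval 32.0 to 59.1) at its summit, 7.21-fold over background, in the top 21.8% of the list with a width of 889 bp. In trunk EGFP+ cells it had 35 reads (interval 24.4 to 48.7), 5.52-fold over background, in the top 28.5% with a width of 1103 bp. Both EGFP+ libraries thus held a wide peak at this position.

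The next such region, 63.9 kb upstream in a Nhej1 intron (chr1:75054425-75055051), was stronger in trunk than in limb EGFP+ cells, with 41 reads and the top 28.6% in trunk against 30 reads and the top 64.8% in limb. Peaks of both EGFP+ lists also stood 26.7 and 64.8 kb upstream, at mean top shares of 74.7 and 74.2%. The other 8 Nhej1 regions were called in 1 EGFP+ library each and stood between the top 60.0 and 99.8% of that list. Past the gene, 4 regions lay 134.6 to 144.7 kb from the start site, all nearest to Wnt10a, a Wnt ligand gene. Of these, the region at 134.6 kb was in all 4 lists, in the top 18.3% in limb EGFP+, 22.4% in limb EGFP−, 16.2% in trunk EGFP+ and 19.8% in trunk EGFP− cells. The window holds the start sites of 8 other genes, and 7 of the 16 regions had Ihh as the gene with the nearest start site.

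The sequence of each gene's best region with peaks in both EGFP+ lists and in no EGFP− list is shown as 300 bases around the limb EGFP+ summit, on the plus strand of GRCm39. Capitals mark every match, on either strand, to the site of Gli factors (GACCACCCA), to the core within it (CCACCCA), or to the sites of SOX (CCATTGT), FOX (TGTTTAC) and RUNX factors (AACCACA). Sequences without capitals hold none of them. Ihh has a match to the Gli core:
Ihh, chr1:75004223-75004522: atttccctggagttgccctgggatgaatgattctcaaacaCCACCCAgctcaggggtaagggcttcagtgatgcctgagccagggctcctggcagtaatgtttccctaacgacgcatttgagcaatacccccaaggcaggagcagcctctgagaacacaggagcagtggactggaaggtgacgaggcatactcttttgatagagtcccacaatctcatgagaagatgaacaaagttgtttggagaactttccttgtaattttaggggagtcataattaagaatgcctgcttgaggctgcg

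Pthlh encodes PTHrP, the signal that keeps chondrocytes from enlarging, and lies on chromosome 6 (147153599-147165681, minus strand) with no other start site within its window. Its promoter was marked in both EGFP+ lists and in no EGFP− list, which together with Hhip makes 2 of the 9 genes (1.45% of all genes). The peaks lay over 625 bp of the promoter windows in limb EGFP+ and 94 bp in trunk EGFP+ cells, and the rest of the trunk peak lay outside them. The strongest rested on 38 reads (interval 26.9 to 52.2), 4.26-fold over background and in the top 38.5% of the limb list, and on 20 reads (interval 12.2 to 30.9), 4.86-fold and in the top 47.3% of the trunk list. The promoter of PTHrP was thus more widely covered and higher in its list in limb than in trunk chondrocytes, while the Ihh promoter had a peak in limb alone.

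All 13 distal regions of Pthlh lay past the gene, in the intergenic DNA between Pthlh and Klhl42, and each was found either in EGFP+ lists only or in EGFP− lists only. The 8 EGFP+-only regions lay 17.8 to 137.3 kb from the start site and the 5 EGFP−-only regions 69.0 to 109.4 kb. Peaks in both EGFP+ lists stood at 64.3, 118.3 and 136.4 kb. The last of these (chr6:147028905-147029633) had 24 reads (interval 15.4 to 35.7) and the top 40.8% in limb EGFP+, and 11 reads (interval 5.49 to 19.7) and the top 76.7% in trunk EGFP+ cells. At 102.0 and 102.6 kb the limb and the trunk EGFP− libraries each had a peak, but at intervals that did not overlap. No EGFP−-only region of Pthlh was shared by the tissues. The best EGFP+ region holds none of the motifs:
Pthlh, chr6:147029322-147029621: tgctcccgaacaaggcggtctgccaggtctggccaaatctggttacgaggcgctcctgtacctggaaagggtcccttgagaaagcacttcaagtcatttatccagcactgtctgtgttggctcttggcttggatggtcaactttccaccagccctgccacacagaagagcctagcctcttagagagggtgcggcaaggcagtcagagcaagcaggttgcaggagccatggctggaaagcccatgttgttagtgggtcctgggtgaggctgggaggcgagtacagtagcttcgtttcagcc

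Ptch1, the receptor of hedgehog ligands and a target of the pathway, lies on chromosome 13 (63656142-63721412, minus strand) and has 5 annotated start sites. Of its 6954 bp of promoter windows 2062 bp lay inside peaks in limb EGFP+, 1282 bp in limb EGFP−, 1385 bp in trunk EGFP+ and 1221 bp in trunk EGFP− cells. In limb EGFP+ cells 97.2% of all marked genes had less and in trunk EGFP− cells 83.2%. The strongest promoter peak, however, stood highest in trunk EGFP− cells (73 reads, 4.18-fold, top 18.9%) and lower in limb EGFP+ (87 reads, 3.07-fold, top 29.8%), trunk EGFP+ (76 reads, 2.93-fold, top 30.8%) and limb EGFP− cells (55 reads, 3.18-fold, top 37.6%). The limb EGFP+ peak lay at another place in the windows than the peaks of the other lists, which overlapped one another. The covered length was thus the highest in limb EGFP+ cells, while the rank and fold there belong to a different site.

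Ptch1 had 21 distal regions. Of these 17 were EGFP+-only, 16 of the 21 lay upstream of the start site and 15 of the 21 had Ptch1 as the gene with the nearest start site. Of the EGFP+-only regions 3 had peaks in both tissues, 8 in limb alone and 6 in trunk alone. The strongest region (chr13:63790754-63791883, 77.2 kb upstream, intergenic) had 67 reads (interval 51.9 to 85.1) and the top 19.1% in limb EGFP+ and 48 reads (interval 35.4 to 63.6) and the top 27.6% in trunk EGFP+ cells. A peak of 11 reads (interval 5.49 to 19.7), in the top 97.6% of its list, was called there in limb EGFP− cells, and none in trunk EGFP− cells. The neighbouring region, 75.9 kb upstream (chr13:63789451-63790542), had 39 and 36 reads in limb and trunk EGFP+ cells, in the top 50.4 and 47.1%, and no EGFP− peak. A second strong region, 135.0 kb upstream (chr13:63848441-63849800) and nearest to Ercc6l2, had 41 reads in limb EGFP+ and 31 in trunk EGFP+ cells. Trunk EGFP− cells had 12 reads there, in the top 90.1% of their list. Both strong regions thus had an EGFP− call from 1 library, near the end of that list. The only EGFP−-only regions, 61.0 and 86.4 kb upstream, were called in 1 library each on 14 and 11 reads. The best region with EGFP+ peaks alone holds a match to the FOX motif:
Ptch1, chr13:63789695-63789994: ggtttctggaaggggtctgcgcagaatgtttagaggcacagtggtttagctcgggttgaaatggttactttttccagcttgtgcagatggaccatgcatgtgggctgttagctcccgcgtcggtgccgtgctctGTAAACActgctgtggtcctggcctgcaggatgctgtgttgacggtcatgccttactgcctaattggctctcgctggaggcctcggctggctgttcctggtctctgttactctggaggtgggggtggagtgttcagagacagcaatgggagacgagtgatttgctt

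Smo, the seven-pass membrane protein that passes the signal on, lies on chromosome 6 (29735407-29762532, plus strand). Its promoter was marked in all 4 lists, over 552 bp in limb EGFP+, 571 bp in limb EGFP−, 287 bp in trunk EGFP+ and 282 bp in trunk EGFP− cells. Its strongest promoter peak stood in the top 7.94% of limb EGFP+ and 13.1% of trunk EGFP+ intervals, against 23.6% of limb EGFP− and 23.1% of trunk EGFP− intervals, with 87, 63, 48 and 48 reads. By rank and by reads both EGFP+ lists were thus above both EGFP− lists, and the local background was also higher in them (11.9 and 10.2 reads against 8.36 and 8.34). No input control is named for these libraries, so the local background may itself hold reads of the mark around a peak. The fold over background was 6.81 in limb EGFP+ and 5.71 in trunk EGFP+ against 5.24 and 5.25 in limb and trunk EGFP− cells. The trunk EGFP− peak was a single interval of 1568 bp that ran past the promoter window onto the region 1.4 kb inside the gene, which the other 3 lists held as a separate peak.

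Smo had 6 distal regions and no region with peaks in both EGFP+ lists alone. The widest, 16.9 kb upstream over an exon of Tspan33 (chr6:29717389-29719640), was 2094 bp wide in limb EGFP+ (59 reads, top 28.2%) and 1541 bp wide in trunk EGFP+ cells (39 reads, top 36.0%), but 265 bp wide in limb EGFP− cells (17 reads, top 59.9%) and not called in trunk EGFP− cells. The region in the Smo gene itself, 1.4 kb past the start site, was in all 4 lists. The 3 EGFP+-only regions of Smo, 74.9 to 102.9 kb upstream, rested on 8 to 12 reads in 1 library each.

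Pth1r, the receptor of PTHrP, lies on chromosome 9 (110550767-110576259, minus strand) and has 8 annotated start sites. Its promoter windows, 6973 bp in all, were covered over 837 bp in limb EGFP+, 727 bp in limb EGFP−, 966 bp in trunk EGFP+ and 579 bp in trunk EGFP− cells. The strongest promoter peak had 61 reads (top 24.5%) in limb EGFP+, 35 reads (top 34.0%) in limb EGFP−, 50 reads (top 31.6%) in trunk EGFP+ and 27 reads (top 52.6%) in trunk EGFP− cells, and in limb EGFP− cells it also reached a promoter of Myl3, a muscle gene. These peaks lay at different places in the windows, and those of limb EGFP+ and trunk EGFP− cells alone overlapped. The EGFP+ peaks had the more reads and the better ranks. Their local background, which may itself hold reads of the mark, was also higher (12.2 against 6.46 reads in limb and 12.4 against 6.6 in trunk). Their fold over background was 4.71 against 4.83 in limb and 3.79 against 3.68 in trunk, so that by fold the fractions were close.

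Of the 9 distal regions of Pth1r only 3 were EGFP+-only and 1 EGFP−-only, while 5 were found in 3 or in all 4 lists. The strongest, 39.3 kb upstream and nearest to Myl3 (chr9:110610650-110611454), had 42 reads in limb EGFP+ (8.37-fold, top 19.9%), 30 in limb EGFP− (5.02-fold, top 36.7%), 33 in trunk EGFP+ (6.23-fold, top 26.6%) and 28 in trunk EGFP− cells (4.87-fold, top 39.6%). The EGFP+ values were the higher in each tissue, within overlapping counting intervals. An intronic region 9.6 kb past the start site was also in all 4 lists, with 50 and 37 reads in limb and trunk EGFP+ and 23 and 21 in limb and trunk EGFP− cells. Its fold over background in EGFP+ against EGFP− cells was 4.43 against 3.66 in limb but 2.81 against 2.97 in trunk. None of the 9 regions had Pth1r as the gene with the nearest start site, since the window holds the starts of 12 other genes. The EGFP+ region 5.8 kb past the start site (35 reads in limb, 27 in trunk) has no motif match in the bases around its summit:
Pth1r, chr9:110565779-110566078: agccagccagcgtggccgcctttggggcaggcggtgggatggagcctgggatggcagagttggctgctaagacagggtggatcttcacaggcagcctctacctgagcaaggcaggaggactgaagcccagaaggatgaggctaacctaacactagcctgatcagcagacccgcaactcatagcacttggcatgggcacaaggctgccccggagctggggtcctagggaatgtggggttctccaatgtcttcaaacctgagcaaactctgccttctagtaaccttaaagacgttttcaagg

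Hhip, the secreted and membrane-bound protein that captures hedgehog ligands, lies on chromosome 8 (80692480-80784658, minus strand) with no other start site within its window. Its promoter was marked in limb EGFP+ cells over 370 bp (31 reads, interval 21.1 to 44.0, 4.05-fold, top 45.9%) and in trunk EGFP+ cells over 326 bp (19 reads, interval 11.4 to 29.7, 4.10-fold, top 57.4%), and in neither EGFP− list. The summits lay within 1 interval in each library, at the 5′ end of the gene. The whole peaks, which ran on into the gene, were 929 bp wide in limb and 550 bp in trunk. As for Pthlh, the limb peak was the wider and the higher in its list.

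The Hhip window held the fewest distal regions of the 9 genes. No EGFP− list had any distal interval there, a state found in the limb EGFP− list for 27.1% of all genes and in the trunk EGFP− list for 30.9%. The 4 EGFP+-only regions were called in 1 library each. In limb EGFP+ cells they lay 91.8 kb upstream (8 reads) and 140.9 kb past the start site (10 reads), and in trunk EGFP+ cells at 63.1 kb, within the gene (15 reads), and at 112.2 kb (12 reads). None was therefore shared by the tissues, and none stood above the top 64.2% of its list. With a window of 500 kb the counts at Hhip were 14 EGFP+-only and 4 EGFP−-only regions.

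Gli1, the Gli factor that is itself switched on by the pathway, lies on chromosome 10 (127165751-127177865, minus strand). Its promoter windows were covered over 2145 bp in limb EGFP+, 1662 bp in limb EGFP−, 2020 bp in trunk EGFP+ and 1409 bp in trunk EGFP− cells, where 97.6, 95.7, 98.0 and 90.9% of all marked genes had less. This was the longest coverage of the 9 genes in every list. The strongest promoter peak had 107 reads (interval 87.7 to 129.3, top 13.9%) in limb EGFP+, 57 (interval 43.2 to 73.9, top 22.2%) in limb EGFP−, 94 (interval 76.0 to 115, top 7.05%) in trunk EGFP+ and 38 reads (interval 26.9 to 52.2, top 35.2%) in trunk EGFP− cells. The limb EGFP+ peak lay at another place in the windows than the limb EGFP− peak, so the limb values compare different sites. The peaks of the trunk libraries overlapped. In each tissue the counting intervals of the EGFP+ and the EGFP− library did not overlap. The local background was also higher in the EGFP+ libraries (24.1 against 11.2 reads in limb and 17.9 against 7.94 in trunk). This background may itself hold reads of the mark. The fold over background was 4.30 against 4.75 in limb and 5.02 against 4.36 in trunk. Of its 8 distal regions 5 were EGFP+-only, on 12 to 14 reads in 1 library each, and the window holds the starts of 12 other genes. Only the region 2.8 kb past the start site had Gli1 as the nearest start. It was called in limb EGFP+ (80 reads, 3.23-fold) and limb EGFP− cells (38 reads, 3.19-fold) and in neither trunk list. The region in all 4 lists, 39.8 kb upstream in an intron of R3hdm2, stood in the top 9.06% in limb EGFP+ cells, by an interval that reached a promoter and so is not counted as distal.

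Gli2, the main activator of hedgehog targets, lies on chromosome 1 (118761858-118982598, minus strand) with no other gene starting in its window. Its promoter windows were covered over 1075 bp in limb EGFP+, 819 bp in limb EGFP−, 920 bp in trunk EGFP+ and 1216 bp in trunk EGFP− cells. Its strongest promoter peak stood highest in limb EGFP− cells (87 reads, 4.93-fold, top 11.2%), and in the top 26.1% in limb EGFP+ (89 reads, 3.34-fold), 25.6% in trunk EGFP+ (70 reads, 3.49-fold) and 26.2% in trunk EGFP− cells (60 reads, 3.96-fold). The EGFP+ peaks overlapped each other and so did the EGFP− peaks, but no EGFP+ peak overlapped an EGFP− peak. These values thus compare different sites between the fractions. Of the 32 distal regions, 24 lay inside the gene. Distal intervals numbered 15 in limb EGFP+, 13 in limb EGFP−, 14 in trunk EGFP+ and 16 in trunk EGFP− cells, so that the EGFP+ number was the higher in limb and the lower in trunk.

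The EGFP+-only and the EGFP−-only regions of Gli2 cannot overlap by definition, and another 4 regions were in all 4 lists. The places given here are those in the full lists. Of the 8 regions upstream of the start site, 7 were EGFP−-only and 1 EGFP+-only. Of the 11 regions past the middle of the gene, 8 were EGFP+-only and 2 EGFP−-only, and of the 13 before it 4 and 4. This split of the gene was chosen after its values were seen. Upstream regions with peaks in both EGFP− lists stood at 11.4, 16.9 and 90.1 kb, the last with 21 reads in limb EGFP− (top 43.4%) and 15 in trunk EGFP− cells (top 73.3%). Inside the gene, regions in both EGFP− lists alone lay at 5.8 and 30.7 kb, and regions in both EGFP+ lists alone at 27.5, 125.7, 144.8, 157.8 and 203.2 kb. The strongest regions were those in all 4 lists, at 19.4 kb (54, 65, 47 and 59 reads in limb EGFP+, limb EGFP−, trunk EGFP+ and trunk EGFP− cells) and at 71.0 kb (63, 60, 53 and 50 reads). Their reads did not separate the fractions. The best region in both EGFP+ lists (29 and 23 reads in limb and trunk, top 54.3 and 63.3%) holds none of the motifs:
Gli2, chr1:118836531-118836830: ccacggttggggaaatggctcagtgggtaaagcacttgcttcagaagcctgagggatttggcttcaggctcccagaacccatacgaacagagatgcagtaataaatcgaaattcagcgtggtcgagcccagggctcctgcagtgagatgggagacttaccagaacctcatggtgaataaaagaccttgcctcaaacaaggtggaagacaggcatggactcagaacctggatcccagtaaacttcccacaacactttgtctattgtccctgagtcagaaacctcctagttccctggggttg

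Gli3, the main repressor of hedgehog targets, lies on chromosome 13 (15637809-15904611, plus strand), also with no other start in its window. Its promoter coverage was 870 bp in limb EGFP+, 532 bp in limb EGFP−, 641 bp in trunk EGFP+ and 515 bp in trunk EGFP− cells, below the median of all marked promoters in each list. The strongest promoter peak had 74, 52, 43 and 37 reads in that order, in the top 31.7, 26.5, 40.2 and 43.9% of the lists. Among the 22 distal regions 16 lay inside the gene, 10 were EGFP+-only, 8 EGFP−-only and 2 in all 4 lists. Only 1 EGFP+-only region, 74.1 kb past the start site, and 1 EGFP−-only region, at 251.8 kb, were found in both tissues. The region with the most reads, 1.8 kb past the start site, had 64 reads in limb EGFP+, 54 in limb EGFP−, 46 in trunk EGFP+ and 34 in trunk EGFP− cells. Its fold and rank gave another order, with 2.59-fold and the top 46.4% in limb EGFP+, 4.49-fold and the top 25.1% in limb EGFP−, 3.43-fold and the top 37.9% in trunk EGFP+ and 3.19-fold and the top 52.9% in trunk EGFP− cells. The region at 74.1 kb (15 and 16 reads in limb and trunk EGFP+ cells) holds none of the motifs:
Gli3, chr13:15711800-15712099: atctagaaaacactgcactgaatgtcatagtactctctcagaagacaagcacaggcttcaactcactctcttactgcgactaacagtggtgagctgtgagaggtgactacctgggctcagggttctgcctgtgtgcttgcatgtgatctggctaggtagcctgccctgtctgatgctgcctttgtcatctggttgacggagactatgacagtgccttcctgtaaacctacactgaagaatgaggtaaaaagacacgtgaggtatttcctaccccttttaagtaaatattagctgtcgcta

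The motifs were counted in the same 300 bases around the summit of every distal region. None of the 131 regions near the 9 genes held the whole Gli site GACCACCCA, which 0.342% of all 43885 regions held. Its core CCACCCA was in 10 of 131 (7.63%; 8.11% of all), CCATTGT in 3 (2.29%; 3.74%), TGTTTAC in 6 (4.58%; 4.28%) and AACCACA in 13 (9.92%; 6.53%). Of the 77 EGFP+-only regions, 10 held AACCACA (13%, interval 6.41 to 22.6), against 6.75% of all EGFP+-only regions, which lies within that interval. The core CCACCCA was in 7 (9.09%; 8.34%) and TGTTTAC in 2 (2.6%; 4.33%). CCATTGT was in 3 (3.9%; 3.63%), at 63.3 kb upstream of Ihh, 126.2 kb upstream of Ptch1 and 116.5 kb past the start of Gli1. A match of letters is a description and not a bound site.

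Other genes of the pathway gave the wider picture. All 12 genes that carry the signal from Smo to the Gli factors, such as Sufu, Kif7 and Spop, had promoter peaks in all 4 lists (47.4% of all genes). Their windows held 38 EGFP+-only and 42 EGFP−-only regions, where 59.9% of both kinds over the genome were EGFP+-only. The co-receptor genes Cdon, Boc, Gas1 and Gpc3 were marked in all 4 lists, and Lrp2 in none. Of 7 genes for the other ligands and for ligand release, the ligands Shh and Dhh had no promoter peak in any list. Scube1 was marked in limb EGFP+ cells only, and Scube2 in trunk EGFP− cells only. Of 12 genes of the PTH family and of PTHrP signalling, 9 were marked in all 4 lists (47.4% of all genes), among them Gnas, Sik3 and Hdac4. Pth, Pth2 and Pth2r were marked in none (41.3% of all genes). The windows of the 12 genes held 65 EGFP+-only and 42 EGFP−-only regions, near the EGFP+-only share of 59.9% over the genome. Of 10 genes of hypertrophy and the perichondrium, Runx2 was marked in both EGFP+ lists only, Runx3 in limb EGFP+ cells only and Tgfb2 in limb EGFP− cells only. All 10 had more distal intervals in limb EGFP+ than in limb EGFP− cells (40.8% of all genes) and 8 of 10 in trunk (41.4%). Their windows held 111 EGFP+-only against 20 EGFP−-only regions, where EGFP+-only regions made up 59.9% of both kinds over the genome. Genes within 1 window can share regions. Promoter peaks in EGFP+ lists alone were thus found at 3 of the 9 loop genes, 2 of these 10 genes and 1 of the 7 ligand and release genes. None of the 12 transduction genes had this state, which is near the share over all genes (3.89%).

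**Figure D4:**
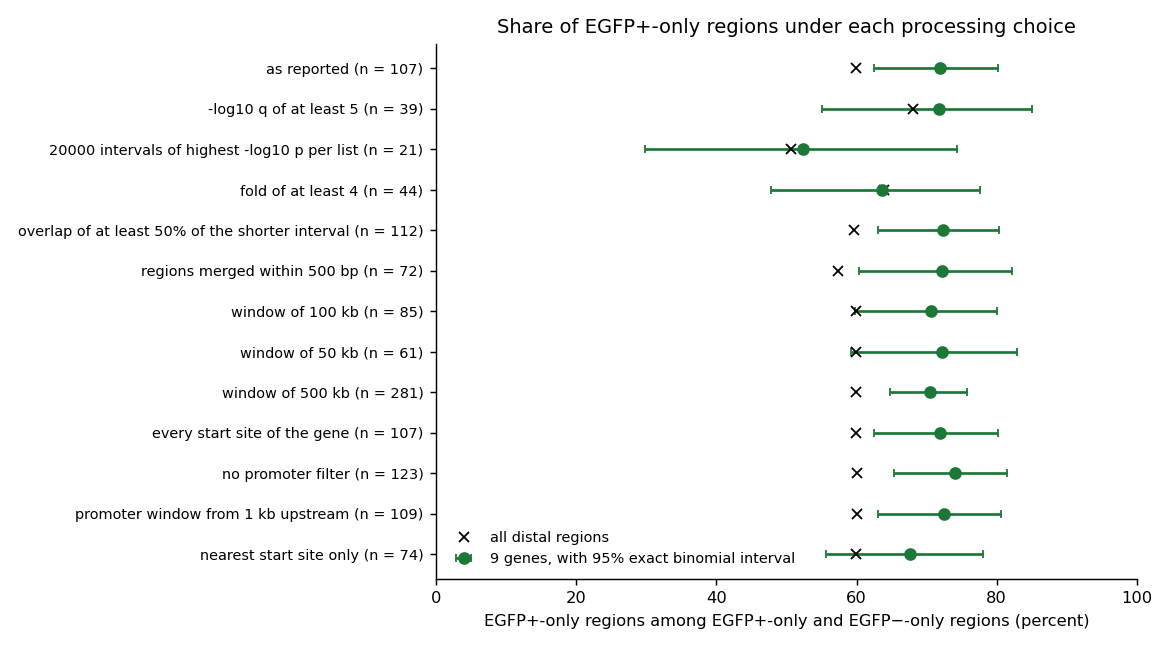
EGFP+-only regions as a percent of EGFP+-only and EGFP−-only regions (horizontal axis) near the 9 genes (circles, 95% exact binomial intervals) and among all distal regions (crosses), as reported and under 12 other processing choices. The circle lies right of the cross in all choices but the fold of at least 4 (63.6% against 63.9%), and nearly meets it with 20000 intervals per list (52.4% against 50.6%).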

How the data were processed

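H3K27ac ChIP-seq peaks of 4 sorted populations, 1 library each, were analysed. The authors sampled the same number of reads per library, trimmed them with CutAdapt 1.18, mapped them to GRCm39 with Bowtie2 2.3.5.1 and called peaks per library with MACS2 2.2.7.1 on reads extended to 200 bp; no input control is named. The deposited −log10 p and −log10 q values, the fold over local background (a ratio) and the score were computed by the authors' peak caller. The score was not used.

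Here, summit rows sharing a start and end were joined into 1 interval that kept its highest −log10 p. Reads at a summit were solved from the fold and the −log10 p of the Poisson model. Windows (gene body or 150 kb around the Ensembl canonical start) and promoters (2 kb before to 500 bp after any of 67388 protein-coding starts) came from GENCODE M39. Promoter coverage is the number of bases of a gene's merged promoter windows inside intervals, so genes with more start sites can reach more. Distal intervals of the 4 lists were merged where they overlapped by at least 1 bp, and a region was present in a list if any interval overlapped it. Percentages carry 95% exact binomial intervals. Motifs were searched in 300 bases around the limb EGFP+ summit, or the strongest one where there was none. Sequences were read from GRCm39. Region patterns and read recovery were tested on simulated data, with 4228 of 4228 patterns and 2000 of 2000 summits recovered. Analyses used Python 3.11.15, pandas 2.3.3, scipy 1.17.1 and pysam 0.24.0.

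The genes named are the 9 members, with each one's promoter peaks, strongest and widest distal regions, and best regions shared by both EGFP+ lists. Members, pathway lists and markers were chosen with earlier results of these data known. With 1 library per population there was no test and no replicate to leave out. The labels name more than 1 sonicator and read length without assigning them to libraries.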

Additional observations from a re-analysis of the deposited data

Results flagged for a closer look

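At 2 genes the difference between EGFP+ and EGFP− cells turned between the tissues, with 1 library in each population, so the difference between the tissues was not tested. The promoter windows of Smo had -19 bp, that is fewer, inside peaks in EGFP+ than in EGFP− cells of the limb (552 against 571 bp) and 5 bp more in EGFP+ cells of the trunk (287 against 282 bp), both small against the length of a peak. Those of Gli2 had 256 bp more in EGFP+ cells of the limb (1075 against 819 bp) and -296 bp, that is fewer, in the trunk (920 against 1216 bp). The Gli2 window had 2 distal intervals more in EGFP+ than in EGFP− cells of the limb (15 against 13) and -2, that is fewer, in the trunk (14 against 16).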

How the results depend on the processing

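No paired analysis was possible because each population had 1 library and the groups share only the replicate number 1, and for the same reason no library could be left out. The other choices gave 108 further values of the counts and shares over the 9 genes, of which 62 stayed within 1.5 times the reported count, or within its interval for a share, and 46 moved. Stricter lists moved the counts of regions and of peaks. At −log10 q values from 5 upward the EGFP+-only, EGFP−-only and both-tissue EGFP+-only regions numbered 28, 11 and 5, and the distal intervals 33, 20, 23 and 14 in limb EGFP+, limb EGFP−, trunk EGFP+ and trunk EGFP− cells. When each list was cut to its 20000 intervals with the highest −log10 p they numbered 11, 10 and 4, and 17, 17, 17 and 14, and the EGFP+-only share fell to 52.4%. With a fold of at least 4 they numbered 28, 16 and 5, and 24, 20, 22 and 8. Promoters were then marked at 5 genes in limb EGFP+, 5 in limb EGFP−, 4 in trunk EGFP+, 3 in trunk EGFP− and 2 in all 4 lists. A window of 50 kb gave 44, 17 and 10 regions and 52 and 41 distal intervals in limb and trunk EGFP+ cells. A window of 500 kb gave 198, 83 and 56 regions and 236, 122, 187 and 113 distal intervals. Without the promoter filter there were 134, 84, 109 and 71 intervals. Keeping only what lay nearest to the start site of 1 of the 9 genes left 50 EGFP+-only regions, 11 of them in both tissues, and 51 and 39 distal intervals in limb and trunk EGFP+ cells. The choices keep different intervals and different lengths of sequence, and what moved each value was not tested. Ranking by fold in place of −log10 p moved the place of a peak in its list by a median of 11.4 percentage points, over 211 peaks of the 9 loci. The weakest sampled intervals rested on 7 to 8 reads, so a mark below that level would not show as a peak in any list.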
